A study of Mus musculus with 4 samples.

Results

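A set of 10 genes of antigen presentation was followed in CD45-negative cells of mouse lymph nodes: 4 of the MHC class II pathway (H2-Aa, H2-Ab1, H2-Eb1 and Cd74), 5 of the MHC class I pathway (B2m, Tap1, Tap2, Psmb8 and Psmb9) and Cd274, which encodes PD-L1. They were chosen by name: every probe for a gene whose name in the scanner files is one of these symbols or an older name of one was taken. This gave 17 of 41174 probes and 10 of the 21392 genes tested. All 17 probes were well above background on all 4 arrays and none was saturated, so no member was lost to the filter on dim probes.

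The arrays compared cells of the gut-draining mesenteric lymph node (mLN) with cells of peripheral lymph node (pLN). All mice were wild-type C57BL/6NCrl, with no treatment named in the labels, and both nodes went through the same collagenase digestion and magnetic removal of CD45-positive leukocytes. There were 2 experiments, each with 1 mLN and 1 pLN array, so each node has 2 arrays. The submitters call the cells stromal in one place and stem cells in another, and state a purity of 97.4% ± 2.0 (SD) for mLN and 97.5% ± 2.2 for pLN. Age, sex, the number of animals per sample and the peripheral sites taken are not given in the sources used here. Whether the experiments used separate animals is not stated either: the p-values then cover only the spread among the 4 samples, which may be partly technical. With whole populations on the array, fewer cells of a type and less RNA per cell cannot be told apart.

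MHC class I molecules show peptides from inside the cell to CD8 T cells: the proteasome cuts proteins, the TAP1 and TAP2 transporter carries the peptides into the endoplasmic reticulum, and they are loaded there onto a heavy chain paired with beta-2-microglobulin. MHC class II molecules, an alpha and a beta chain held by the invariant chain CD74 until loading, show peptides from endosomes to CD4 T cells and are made mainly by B cells, dendritic cells and macrophages. Lymph node stroma is known to carry class I molecules, to show self antigens, to take on class II molecules under interferon gamma and to carry PD-L1, the ligand of the T cell inhibitory receptor PD-1.

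Several of these genes lie together in the MHC region of chromosome 17. The used probes of the 7 members on that chromosome fell within 131 kb, from 33792517 to 33923261 on mm8, the build of the files. In order they read Psmb9 (chr17:33792517-33792576), Tap1 (chr17:33804121-33804180), Psmb8 (chr17:33811095-33811419), Tap2 (chr17:33825052-33825639), H2-Ab1 (chr17:33872973-33873032), H2-Aa (chr17:33892680-33892739) and H2-Eb1 (chr17:33922800-33923261). The probes of Psmb8, Tap2 and H2-Eb1 have 60 bases but span 325, 588 and 462 positions, so they read joined stretches of the genome. The used probes of B2m (chr2:121844106-121844165) and Cd274 (chr19:29453870-29453929) lie elsewhere, and exon annotation on mm8 was not used here. Tap1 and Psmb9 are neighbours read in opposite directions, with 225 bases between their gene starts in RefSeq (GRCm38.p6), and that stretch is shown because both genes were lower on both mLN arrays (below). The remaining stretches are the 170 bases before the start of 2 class II genes and of B2m, shown because interferon-responsive and class II promoters are known for short shared boxes. Each runs 5′ to 3′ on the gene's strand, or on the plus strand for the shared stretch. Capitals mark matches to the motifs searched: the interferon-stimulated response element (ISRE), the gamma-activated site (GAS, TTCNNNGAA), the core of the Y box (ATTGG, an inverted CCAAT), a core of the X box (CAGATG) and the kappa B site, all searched on both strands.
Tap1 and Psmb9, chr17:34187331-34187555, plus strand: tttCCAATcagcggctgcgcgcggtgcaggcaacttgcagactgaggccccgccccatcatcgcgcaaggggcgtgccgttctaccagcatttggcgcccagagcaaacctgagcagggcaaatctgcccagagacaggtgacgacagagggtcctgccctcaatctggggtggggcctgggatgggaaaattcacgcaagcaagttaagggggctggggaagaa
H2-Aa, chr17:34287824-34287993, minus strand: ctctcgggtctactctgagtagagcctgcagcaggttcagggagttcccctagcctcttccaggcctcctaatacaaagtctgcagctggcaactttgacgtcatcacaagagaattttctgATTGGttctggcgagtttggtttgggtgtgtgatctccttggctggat
H2-Eb1, chr17:34305697-34305866, plus strand: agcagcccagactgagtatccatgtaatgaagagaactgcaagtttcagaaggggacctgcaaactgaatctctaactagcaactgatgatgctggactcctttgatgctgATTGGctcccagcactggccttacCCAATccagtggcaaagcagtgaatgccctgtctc
B2m, chr2:122147517-122147686, plus strand: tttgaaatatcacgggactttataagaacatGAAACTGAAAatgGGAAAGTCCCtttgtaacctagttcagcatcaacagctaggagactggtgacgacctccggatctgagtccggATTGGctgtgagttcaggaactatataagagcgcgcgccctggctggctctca

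The Y box core was the match most members held: 5 of the 8 with a promoter window (B2m, H2-Aa, H2-Eb1, Psmb9 and Tap1), against 37.4% of all 32817 windows of the same length. It began 48 bases before the gene start in H2-Aa, 53 in B2m and 59 in H2-Eb1, where another copy lies on the opposite strand at 35. The Psmb9 copy, 8 bases before its start, and the Tap1 copy, 222 bases before its start, are the same letters at the left end of the shared stretch. B2m alone held an ISRE, 139 bases before its start (3.43% of windows), and next to it a kappa B match at 126 (0.411% of windows). A GAS was found in the Psmb8 window (8.29% of windows), 97 bases before the start, and the X box core in that of H2-Aa (17.2% of windows), 232 bases before the start and outside the stretch shown. None of the 5 motifs was in the windows of Cd274 and Cd74. These are matches of letters and describe no binding.

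None of the 10 members passed the test between the nodes (limma, Benjamini-Hochberg adjusted p below 0.05 over all genes tested), where 1.05% of all genes did (0.776% higher and 0.276% lower in mLN). None had an unadjusted p below 0.05 either, against 14.7% of all genes (7.8% higher, 6.88% lower). That count depends on the setting, since Tap2, Psmb8, Psmb9 and Cd274 each fell below 0.05 in at least 1 alternative. With normexp and 1 background per array, the unadjusted limma p was 0.037 for Tap2 and 0.040 for Cd274. None was at least 2-fold apart in the same direction in both experiments, against 4.45% of all genes (2.75% higher, 1.71% lower). The size of difference this design could call limits these counts: in data simulated on the 21392 genes of this comparison, 0.6% of 2-fold changes and 45.8% of 4-fold changes were called. The medians of their log2 differences, mLN minus pLN, were 0.04 for class II and -0.27 for class I, and the single value of Cd274 was -0.60, beside -0.03 over all genes. The class II median turned to -0.22 with normexp on the local background, a setting that moved the median of all genes to 0.38, and no difference between these groups was tested.

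**Figure D1:**
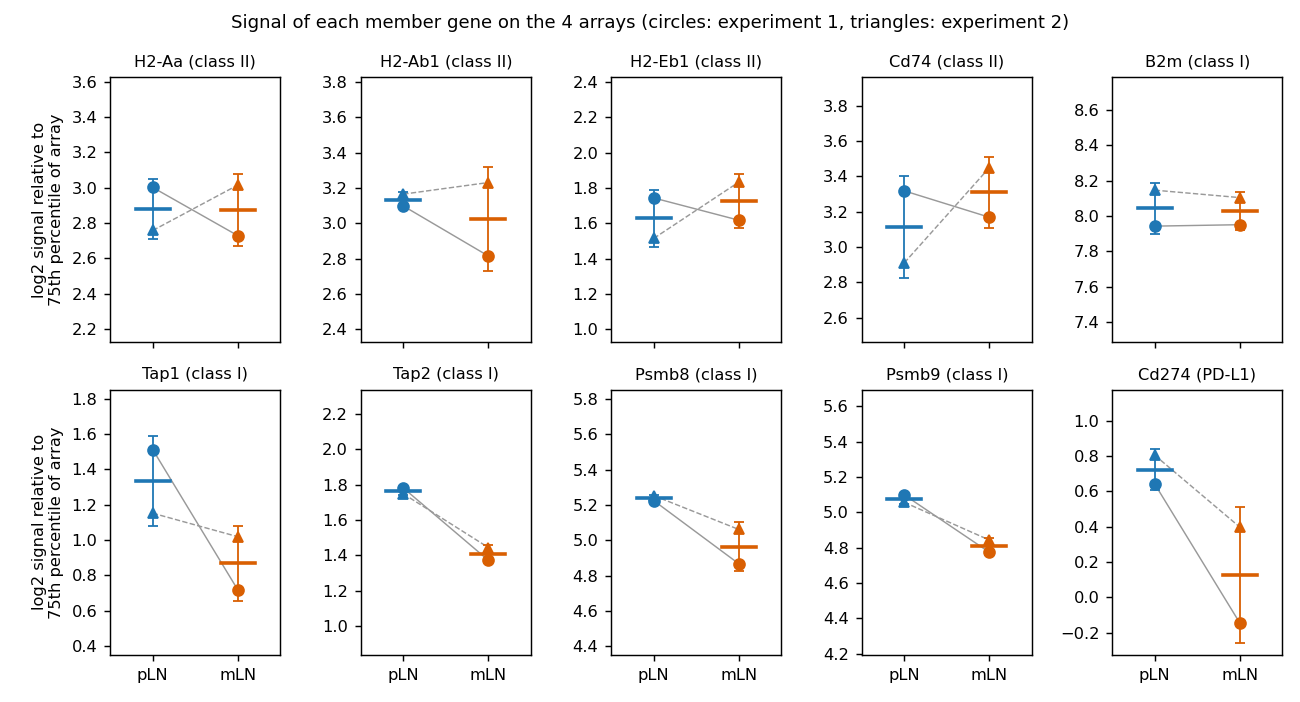
Level of each of the 10 genes on each array, as log2 signal relative to that array's 75th percentile; each panel has its own range and spans the same number of log2 units, horizontal bars are the mean of a node, error bars its SD (n = 2), and grey lines join the arrays of an experiment (solid 1, dashed 2). The mLN points of Tap1, Tap2, Psmb8, Psmb9 and Cd274 lie below both pLN points, while the nodes overlap for the class II genes and B2m.

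The class II genes did not keep one order between the nodes. Levels are given as log2 signal minus the array's 75th percentile, and they compare arrays for one gene, not one gene with another. H2-Aa, the alpha chain of the I-A molecule, read 3.0 and 2.76 in pLN of experiments 1 and 2 and 2.73 and 3.02 in mLN. The highest and the lowest array were thus both mLN. The difference was -0.01 ± 0.18 (SE), with a 95% interval from -0.50 to 0.49 and an adjusted p of 0.992.

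H2-Ab1, its beta chain, read 3.1 and 3.16 in pLN and 2.81 and 3.23 in mLN, again with mLN at both ends. The difference was -0.11 ± 0.19 (interval -0.63 to 0.41, adjusted p = 0.874). H2-Eb1, the beta chain of the I-E molecule, read 1.74 and 1.51 in pLN and 1.62 and 1.83 in mLN, with overlapping nodes and a difference of 0.10 ± 0.17 (interval -0.36 to 0.55, adjusted p = 0.871). C57BL/6 mice are known to lack the I-E alpha chain. Its gene, H2-Ea, was not well above background on any of the 4 arrays.

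Cd74, the invariant chain on chromosome 18, read 3.32 and 2.91 in pLN and 3.17 and 3.45 in mLN, where pLN of experiment 1 fell between the mLN arrays. Its difference was 0.19 ± 0.21 (interval -0.38 to 0.77, adjusted p = 0.770). The 95% intervals of the 4 class II genes kept mLN between 0.645-fold (H2-Ab1) and 1.70-fold (Cd74) of pLN.

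By the probes used, all 4 class II genes were lower in mLN in experiment 1 and higher in mLN in experiment 2. In experiment 1 the log2 ratios ran from -0.28 (H2-Ab1) to -0.13 (H2-Eb1), and in experiment 2 from 0.07 (H2-Ab1) to 0.54 (Cd74). Each ratio rests on 1 array per node and has no test. In mLN every class II gene was higher in experiment 2, by 0.22 (H2-Eb1) to 0.42 (H2-Ab1). In pLN the step from experiment 1 to experiment 2 was -0.24 for H2-Aa, -0.23 for H2-Eb1 and -0.41 for Cd74, whereas it was 0.07 for H2-Ab1. The median size of the step between experiments over all genes was 0.18 in pLN and 0.23 in mLN.

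**Figure D2:**
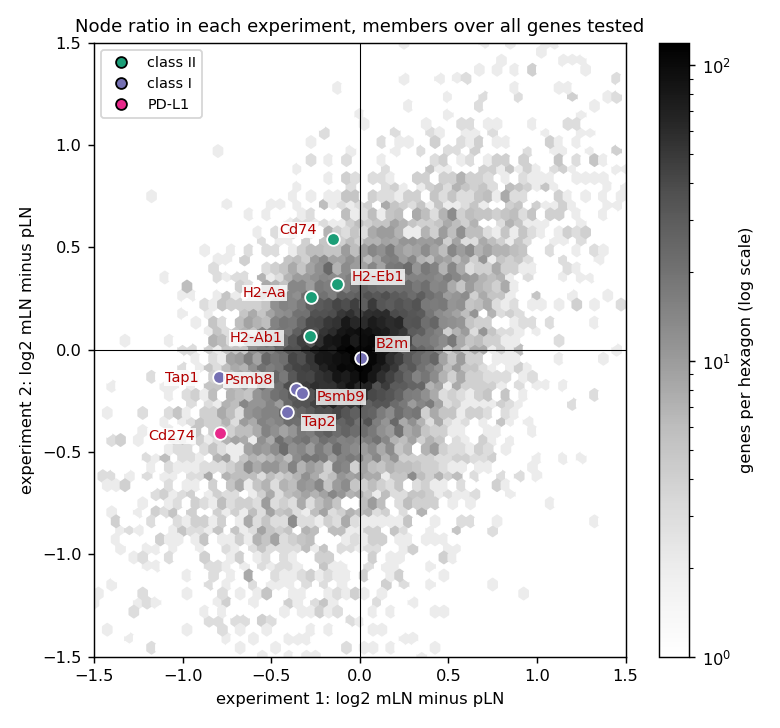
Log2 ratio of mLN to pLN in experiment 1 (horizontal) and experiment 2 (vertical), 1 array per node in each; grey hexagons count all genes tested on a log scale and coloured points are the 10 genes. The 4 class II genes sit at the upper left, with opposite signs in the 2 experiments, and Tap1, Tap2, Psmb8, Psmb9 and Cd274 in the lower left, with ratios below 0 in both.

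The further probes of the class II genes gave differences close to those of the ones used. The second H2-Aa probe gave 0.03 ± 0.21, and the 4 H2-Ab1 probes gave -0.15 to -0.11, all 4 higher in experiment 2 than in experiment 1 within each node. The experiment 2 ratios of the 3 further H2-Ab1 probes were -0.0077, -0.02 and 0.0032, so the change of sign between experiments rests on the used probe for this gene. Of the H2-Ab1 probes, 2 overlap by 31 bases and are shown because this chain varies between mouse strains and the letters decide which form a probe matches. Capitals mark the bases at which they differ.
H2-Ab1 probe used, chr17:33872973-33873032 on mm8: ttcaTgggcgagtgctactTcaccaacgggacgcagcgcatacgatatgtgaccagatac
H2-Ab1 probe with no position in the files: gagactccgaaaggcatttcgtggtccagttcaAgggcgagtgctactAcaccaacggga
Counted from 1 at the 5′ end of the used probe, the substitutions are T5A and T20A, with the other 29 bases of the overlap identical. The differences between the nodes were -0.11 ± 0.20 for the first and -0.15 ± 0.19 for the other.

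Class II genes are also the hallmark of the leukocytes that the isolation was meant to remove, and transcripts of such cells were present beside those of stroma. Fibroblastic reticular markers, among them Ccl19, Pdpn and Pdgfra, were well above background on every array. The 9 tested summed to 422 and 500.4 in pLN and 489 and 634 in mLN, with none called, 6 higher in mLN and 3 lower. Lum (0.86 ± 0.14, adjusted p = 0.103) and Dpt (0.98 ± 0.18, adjusted p = 0.126) lay highest. Both passed when the variance in the limma fit was allowed to follow intensity (adjusted p = 0.019 and 0.048). Ptprc, which encodes CD45 itself, read -1.32 and -1.77 in pLN and -1.54 and -1.42 in mLN, well above background on every array, with a difference of 0.06 ± 0.21 (adjusted p = 0.944). Of 31 markers of B cells, dendritic cells and macrophages, 28 entered the test; Clec9a, Cd209a and Siglech were not well above background on both arrays of either node. Levels summed over those markers, as multiples of the 75th percentile, were 27.6 and 20.9 in pLN and 20.9 and 19.9 in mLN. All such sums add signals of different probes, so the brightest probes weigh most, and they measure no number of cells.

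For the 6 B cell genes of that list (Cd79a, Cd79b, Ms4a1, Pax5, Blk and Cd22) the summed levels were 5.10 and 3.91 in pLN and 2.93 and 3.85 in mLN. Cd79b and Ms4a1 had the brightest probes of the 6. The sums were thus lower in mLN in experiment 1 and close in experiment 2, with a step down in pLN and up in mLN between the experiments. In mLN, Cd79a, Cd79b, Ms4a1, Blk and Cd22 stepped up, whereas Pax5 stepped down (-5.82 to -6.53). Pax5 was well above background on only 1 of the 2 mLN arrays and entered the test through pLN. Cd37, a marker of the list outside the 6, also stepped down in mLN (-0.72 to -0.81). This grouping was not among the planned lists. The dendritic cell genes summed to 3.21 and 3.26 in pLN and 2.97 and 3.42 in mLN, but moved in opposite directions. Of the 7 tested, 4 lay higher in mLN and 3 lower. Zbtb46, with the brightest probe of the 7, differed by -0.60 ± 0.15, whereas Batf3 gave 1.20 ± 0.16 and Itgax 0.61 ± 0.17. The adjusted p-values of these genes were 0.190, 0.070 and 0.233. The part of these cells in the class II values was not tested. The 1 marker of the list that passed the test was Mrc1, the macrophage mannose receptor, higher in mLN by 2.05 ± 0.20 (adjusted p = 0.037). With the experiment as a block its adjusted p was 0.054. Mrc1 also did not pass without the filter on dim probes or with normexp on the local background. Leaving out 1 array gave 1.89 to 2.20. The 11 macrophage and myeloid genes summed to 14.5 and 9.18 in pLN and 10.4 and 7.58 in mLN, although 7 of them lay higher in mLN and 4 lower (median 0.40). The brightest probe of the 11 was that of Lyz2, which differed by -0.74 ± 0.39.

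The class I genes other than B2m were lower on both mLN arrays, by amounts too small to pass the test. Tap1, which encodes one chain of the peptide transporter, read 1.51 and 1.15 in pLN and 0.72 and 1.02 in mLN. The difference was -0.46 ± 0.21 (interval -1.02 to 0.09, adjusted p = 0.426). It was uneven between experiments, -0.79 in the first and -0.13 in the second, and came to -0.28 without pLN replicate 1.

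Tap2, the other chain, read 1.78 and 1.75 in pLN and 1.37 and 1.44 in mLN. The arrays of a node lay close together and the nodes apart, with a difference of -0.36 ± 0.13 (interval -0.72 to 0.01, unadjusted p = 0.052, adjusted p = 0.348). The ratios were -0.41 and -0.30 in the 2 experiments.

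Psmb8 and Psmb9 encode catalytic subunits of the immunoproteasome, the form of the proteasome induced by interferon. Psmb8 read 5.22 and 5.25 in pLN and 4.87 and 5.06 in mLN, a difference of -0.27 ± 0.15 (interval -0.67 to 0.12, adjusted p = 0.509) that its second probe repeated at -0.28. It came to -0.18 without mLN replicate 1. Psmb9 read 5.10 and 5.06 in pLN and 4.77 and 4.84 in mLN, a difference of -0.27 ± 0.14 (interval -0.63 to 0.09, adjusted p = 0.478). For both genes the 2 mLN arrays lay below the 2 pLN arrays.

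B2m, the light chain of every class I molecule, read 7.94 and 8.15 in pLN and 7.95 and 8.10 in mLN, and the nodes overlapped. The difference was -0.02 ± 0.16 (interval -0.44 to 0.41, adjusted p = 0.981). Its other probes gave -0.18 ± 0.14, from 10 spots per array, and -0.33 ± 0.18, both lower in mLN in both experiments, so the probes of this gene disagree about an overlap of the nodes. None of the B2m probes passed the test.

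Cd274 stood furthest from 0 among the members. It read 0.64 and 0.80 in pLN and -0.15 and 0.40 in mLN, so both mLN arrays were below both pLN arrays, and the mLN arrays lay further apart than the pLN arrays. The level in pLN was 1.51 times that in mLN, a log2 difference of -0.60 ± 0.23 (interval -1.22 to 0.03, unadjusted p = 0.058, adjusted p = 0.365). The interval allows a pLN level from 0.979 to 2.34 times that of mLN. Without mLN replicate 1 the difference was -0.33 and without mLN replicate 2 it was -0.87.

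**Figure D3:**
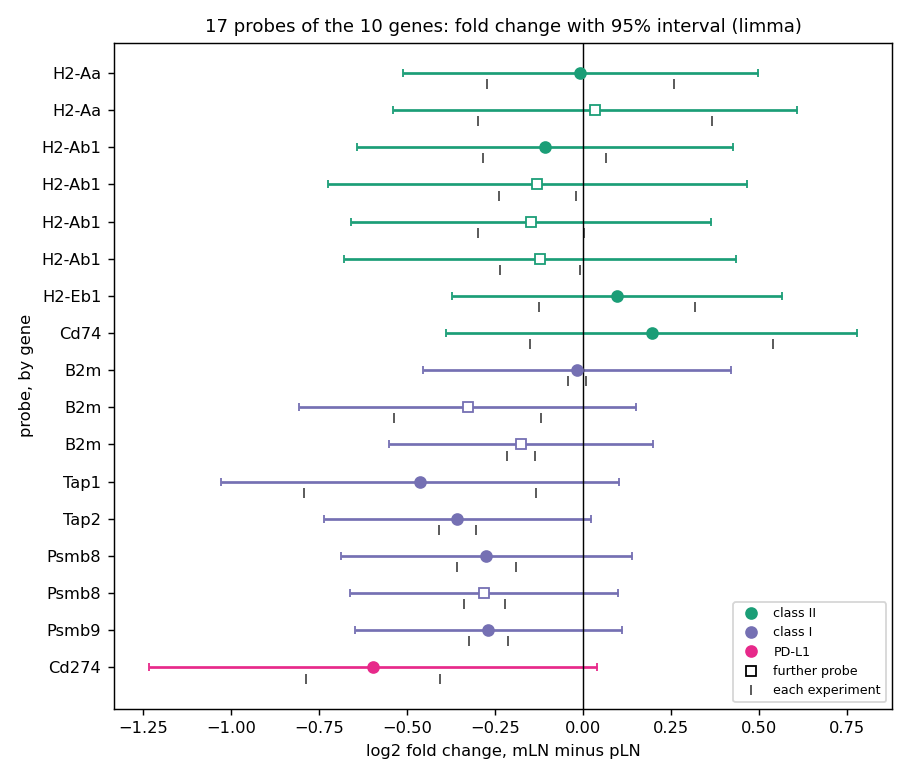
Log2 difference, mLN minus pLN, for each of the 17 probes of the 10 genes, with 95% intervals from the limma fit over all probes; filled points are the probe used for a gene, open squares its further probes and short ticks the ratio in each experiment. Every interval includes 0, and the point furthest to the left is Cd274 at -0.60.

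In all, 5 of the 10 members had both mLN arrays below both pLN arrays and none had both above. Over all genes tested the nodes did not overlap for 45.6%, with mLN below for 25% and above for 20.6%. These 5 genes had ratios below 0 in both experiments, and no member had both above 0; of all genes, 34.9% and 28% did. Tap1, Tap2, Psmb8 and Psmb9 are neighbours in the genome and, as background, respond to the same interferon signals, so their values are not separate observations. Endothelial markers split: none of 7 blood endothelial genes was called, 4 lay lower in mLN (Pecam1 at -0.67 ± 0.22) and 3 higher (Madcam1 at 1.64 ± 0.41). Their summed levels were 456 and 495 in pLN and 390 and 451 in mLN, with Glycam1 and Ly6c1 the brightest probes. None of 5 lymphatic endothelial genes was called, and 3 lay lower and 2 higher. Mesothelial markers summed to 6.56 and 7.15 in pLN and 44.0 and 32.6 in mLN. Of their 8 genes, 6 were called as higher in mLN, against 0.776% of all genes. Msln and Upk3b of these were well above background on all arrays. Upk1b, Lrrn4, Wt1 and Bnc1 were well above background on at most 1 pLN array and entered the test through mLN. Epithelial markers summed to 9.07 and 17.8 in pLN and 4.24 and 2.81 in mLN. Of the 8, 7 lay lower in mLN, 5 of them at least 2-fold in both experiments (1.71% of all genes). The test called 2 as lower (Csn3 and Wfdc2, against 0.276% of all genes), or 3 with Elf5 when the experiment was a block (adjusted p = 0.0499). Elf5, which is also among the 5, was well above background on no mLN array and entered the test through pLN. Whether these differences in marker levels bear on the class I and Cd274 values was not tested.

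The wider class I list, of heavy chains and loading factors, had 24 genes, 20 of them on the array and 19 tested. None passed the test and 1, Cd1d1, had an unadjusted p below 0.05. Its median difference was -0.22, with 12 genes lower on both mLN arrays (25% of all genes) and 4 higher (20.6% of all genes). All 11 classical and related H2 heavy chain genes tested had ratios below 0 in both experiments (34.9% of all genes). Of them, 10 had both mLN arrays below both pLN arrays (25% of all genes). That grouping was made after their values were seen.

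Among the heavy chains, H2-K1 and H2-D1, the classical molecules of this strain, differed by -0.12 ± 0.14 and -0.25 ± 0.14. The values of the 11 ran from -0.43 ± 0.28 for H2-T24 to that of H2-K1, and H2-T22 gave -0.40 ± 0.18. H2-T24 turned to 0.47 when the local background was modelled with normexp, a setting that moved the median of all genes from -0.03 to 0.38. The other 10 stayed below 0 in every alternative, although 1 further probe of H2-Q10 gave 0.25. The probes of H2-Q1 differed widely, from -2.02 to -0.25. Heavy chain genes are near-identical copies in part, so a probe may read several of them and the 11 are not independent. Cd1d1, which presents lipids and not peptides, differed by -0.52 ± 0.17 (adjusted p = 0.292).

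The 4 genes of this list that were higher on both mLN arrays were all chaperones of loading in the endoplasmic reticulum: Pdia3 at 0.32 ± 0.17, Calr at 0.23 ± 0.17, Canx at 0.17 ± 0.15 and Tapbp, which encodes tapasin, at 0.15 ± 0.15. With normexp on the local background Calr, Canx and Tapbp lay below 0 and Pdia3 at 0.0068. The lowest values among the further probes were -0.02 for Tapbp, 0.01 for Calr and 0.03 for Canx, and Tapbpl of the same list gave -0.07 ± 0.16. These 4 genes were grouped after their values were seen, and 20.6% of all genes were higher on both mLN arrays. None passed the test, and the difference between them and the heavy chains was not tested.

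Of the rest of the proteasome, all 18 listed subunits and activators were tested, none passed the test and none had an unadjusted p below 0.05. Their median was -0.02, or -0.34 with normexp on the local background, and their range ran from -0.18 ± 0.14 for Psmb2 to 0.11 ± 0.17 for Psmb10, the third immunoproteasome subunit; Psma4, a subunit of the outer ring, gave -0.09 ± 0.13. Psmb5 and Psmb6, whose places Psmb8 and Psmb9 take in the immunoproteasome, gave 0.003 ± 0.15 and 0.05 ± 0.15, and were picked for that role after their values were seen. The activator genes Psme1 and Psme2, likewise, gave -0.03 ± 0.14 each.

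**Figure D4:**
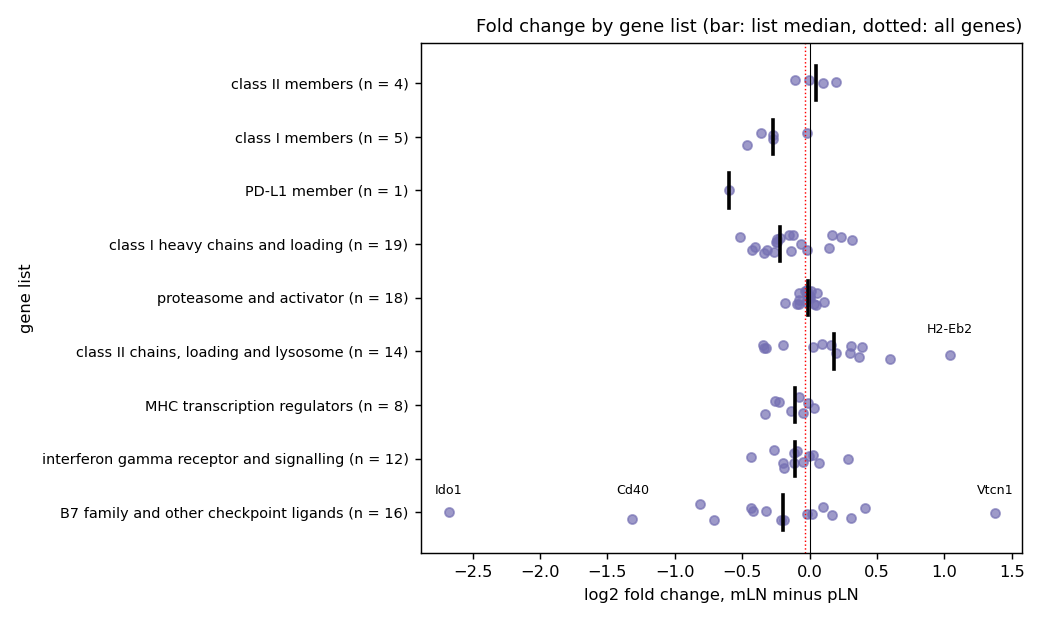
Log2 difference, mLN minus pLN, of every tested gene in the 3 groups of members and in 6 further lists; black bars are list medians and the dotted line is the median of all genes tested. Proteasome genes lie between -0.18 and 0.11, the class I heavy chain and loading list has its median at -0.22, and Ido1, Cd40 and Vtcn1 lie far from the rest of the checkpoint list.

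Of 15 listed genes of further class II chains, their loading and the lysosome, 14 were tested and none passed, with 1 (Ifi30) at an unadjusted p below 0.05. The median was 0.18, and 8 genes were higher on both mLN arrays (20.6% of all genes) against 1 lower (25% of all genes). With normexp on the local background the median was 0.01, and Ctsb, Ctsd, Ctsl, Lgmn and Cd63, of the lysosome, turned below 0. Ifi30, a thiol reductase of the endosome that unfolds antigens, read 1.43 and 1.27 in pLN and 1.89 and 2.00 in mLN. The nodes did not overlap and the difference was 0.60 ± 0.15 (adjusted p = 0.189).

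H2-DMb1, a chain of the DM molecule that helps exchange peptides, differed by 0.39 ± 0.15 (adjusted p = 0.371). H2-Eb2 gave the largest value of the list, 1.04 ± 0.44 (adjusted p = 0.403), but was well above background on only 1 of the 2 pLN arrays, and its second probe gave 0.53. It came to 0.46 without pLN replicate 1, 1.62 without pLN replicate 2, 1.70 with normexp on the local background and 0.27 with 1 background per array. Ctss, the protease that trims the invariant chain, was the 1 gene lower on both mLN arrays, at -0.33 ± 0.19 (adjusted p = 0.537). H2-Oa and H2-Ob, singled out after their values were seen, encode the DO molecule of B cells and split by experiment as the class II members did: -0.80 then 0.11 for H2-Oa, and -0.93 then 0.26 for H2-Ob.

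Of 9 listed regulators of MHC transcription 8 were tested, with Nlrc5 not analysed here. None passed the test, none had an unadjusted p below 0.05, and the median was -0.11. Ciita, the master activator of class II genes, read -2.90 and -3.57 in pLN and -3.85 and -3.28 in mLN. The nodes overlapped, with a ratio of -0.95 in experiment 1 and 0.30 in experiment 2, and a difference of -0.33 ± 0.33 (adjusted p = 0.744). Rfx5, which binds the X box, had the same signs at -0.77 and 0.26. Both were named after their values were seen. Nfya and Nfyc, subunits of the factor that binds the Y box, gave -0.22 ± 0.13 and -0.13 ± 0.14, lower in mLN in both experiments.

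The 12 genes of interferon gamma signalling were all tested, and none passed or had an unadjusted p below 0.05. Their median was -0.11. Irf9, a subunit of the factor that binds ISRE elements, gave -0.44 ± 0.20 (adjusted p = 0.435). Irf1, a transcription factor induced by interferon, gave -0.12 ± 0.26 (adjusted p = 0.902) and turned to 0.16 without mLN replicate 1. Socs1, a feedback inhibitor of the pathway, lay the other way at 0.28 ± 0.19 (adjusted p = 0.598).

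Around Cd274, 16 genes of the B7 family and other ligands or receptors of T cell control were tested. None passed, and 5 had an unadjusted p below 0.05, all lower in mLN (Ido1, Cd40, Icosl, Nectin2 and Btla), where 6.88% of all genes were lower at that p. Btla, at -0.81 ± 0.30, turned to 0.66 with normexp on the local background, and the others of the 5 stayed below 0. The list's median was -0.20, which turned to 0.65 with normexp on the local background. Ido1, which degrades tryptophan and restrains T cells, had the largest difference. It read -0.43 and -0.87 in pLN and -2.74 and -3.92 in mLN, so that every mLN array was far below every pLN array. The difference was -2.68 ± 0.45, with an adjusted p of 0.108. It passed with the experiment as a block (adjusted p = 0.045), with normexp and 1 background per array (-2.30, adjusted p = 0.043) and without mLN replicate 1 (-3.27, adjusted p = 0.049); over all alternatives its adjusted p ran from 0.043 to 0.689. With normexp on the local background the difference was -1.14.

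Cd40, the receptor through which helper T cells activate antigen-presenting cells, read -0.69 and -0.59 in pLN and -1.69 and -2.22 in mLN. The nodes did not overlap, and the difference was -1.31 ± 0.23 (adjusted p = 0.111), or -0.59 with normexp on the local background. Vtcn1, an inhibitory B7 relative, lay the other way at 1.38 ± 0.56 (adjusted p = 0.383), but was well above background on only 1 of the 2 pLN arrays. It came to 0.65 without mLN replicate 1, 2.10 without mLN replicate 2 and 0.49 with normexp and 1 background per array. Pdcd1lg2, the other ligand of PD-1, was named for that role and read -3.86 and -3.90 in pLN and -4.68 and -3.46 in mLN. Its nodes overlapped, with a difference of -0.19 ± 0.43 (adjusted p = 0.911).

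The genes whose pattern over the 4 arrays was most like that of the members are named by the root mean square difference of their centred log2 values, a likeness over 4 arrays only. For the mean of the class II genes they were Cep170 (0.0034), Mios, Irgq, Stt3a and Pde1b (0.011). For the mean of the class I genes they were Grrp1 (0.0068), Gpkow, 9930021J03Rik, Calcrl and 1110038B12Rik (0.012). For Cd274 they were Rgs5, a pericyte gene, at 0.035, then Dcbld1, Kirrel3, Pde1c and C130074G19Rik at up to 0.053.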

How the data were processed

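Per the file headers, the deposited intensity values are Agilent Feature Extraction 9.5.3.1 processed signals of 1-colour arrays, background-subtracted and detrended. Other deposited columns flag signals well above background, saturated spots and outlier spots. Per the labels' protocols, 80 ng of RNA per sample was labelled with a single dye. The deposited value table, used only as an alternative, holds the same intensity times 1 factor per array (0.862 to 0.890), with a floor of 15; its column medians were 161 to 172 on a linear scale.

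Control and outlier spots were left out, spots of a probe averaged, log2 taken and each array's 75th percentile (1686 to 1741) subtracted. A probe entered if both arrays of pLN, or both of mLN, were well above background (31883 of 41174 probes did; 74.0% to 81.1% were above it per array), and each gene took its entering probe with the highest mean. Names came from the files, updated through RefSeq (accession 24375 probes, symbol 6301, synonym 2426; 8072 kept the file's name). Probe coordinates are mm8 and were not converted. Promoter windows, from RefSeq on GRCm38.p6, were found for 8 members, and all 8 were searched for the motifs.

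limma 3.58.1 (lmFit, eBayes) in R 4.3.3 compared the 2 mLN with the 2 pLN arrays over 21392 genes, with Benjamini-Hochberg adjustment and a threshold of 0.05; probes were fitted together in the same way. Values after ± are standard errors unless named. The number of arrays limits the precision. The labels number the experiments, which therefore pair an mLN with a pLN array; deviations between experiments correlated at r = 0.246 across genes. The fit was tested on simulated data, where 94.3% of the 95% intervals of unchanged genes held 0.

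The members, gene lists, tests and alternatives were chosen with earlier results of these data known. Named genes are the members with every probe, genes of each list that passed or up to 3 with the largest difference of one sign in both experiments, Ptprc, and the 5 genes most like each group of members; marker lists are given mainly as summed levels. In the gene lists, 2 genes are not reported here and enter no list's count, median or sum.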

Additional observations from a re-analysis of the deposited data

How the results depend on the processing

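No member passed the test in any alternative, where the lowest adjusted p was 0.203, and Tap1, Tap2, Psmb8, Psmb9 and Cd274 lay lower in mLN in all of them. The experiment as a replicate block gave 0 members called and adjusted p-values of 0.222 for Cd274, 0.349 for Tap2 and 0.421 for Tap1; beside Ido1, Mrc1 and Elf5 it changed no call named here. Normexp on the local background raised the median of all genes to 0.38 and gave 8 members with nodes that did not overlap, in place of 5; it turned H2-Eb1 to -0.0267, Cd74 to -0.0881, H2-T24 to 0.47 and Psmb10 to -0.24, and moved Tap2, Psmb8 and Psmb9 to -0.57. H2-Aa turned to 0.0036 with median scaling, to 0.0129 with the mean of its probes and to 0.0335 by its second probe. Leaving out 1 array gave -0.15 to 0.14 for H2-Aa, -0.32 to 0.10 for H2-Ab1, -0.0179 to 0.21 for H2-Eb1, -0.00897 to 0.40 for Cd74, -0.12 to 0.0848 for B2m, -0.0255 to 0.24 for Psmb10, -0.39 to 0.16 for Irf1 and -0.17 to 0.28 for Ptprc. The causes were not tested. Over all genes, 225 were called, 0 with normexp on the local background and 0 without either pLN replicate. The slide was not fitted as a block, since all arrays lay on 1 slide. The motif counts of members were the same in the part before the gene start.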
